A study of Gallus gallus with 2 samples.

Results

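Genes grouped as replacement histones, and the gene for the H2A.Z chaperone, were compared between 2 cultures of DT40. DT40 is a chicken B lymphoma line from the bursa of Fabricius that is widely used for gene targeting. The genes were H2AFZ (H2A.Z-1), H2AZ2 (H2A.Z-2), H2AFY (macroH2A), H3F3C and ANP32E. They were taken with every probe set whose annotation names 1 of these 5 symbols and no other gene. That gave 7 of the 38535 probe sets on the array: 1 each for H2AFZ, H2AZ2 and H2AFY, and 2 each for H3F3C and ANP32E. A further 2 probe sets list H3F3C among 4 histone H3 genes and were not counted.

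Total RNA of each culture was hybridised to 1 Affymetrix chicken array, 1 array per group. The knockout array came from a clone in which H2A.Z-2 was deleted constitutively and H2A.Z-1 was supplied by a tetracycline-repressible transgene, harvested after 3 days of tetracycline. The other array came from a wild-type clone. The protocol text of both samples mentions tetracycline, but the labels give a time for the knockout alone. Whether the wild-type culture received the drug is therefore not settled, so drug and genotype cannot be told apart. No array of the knockout clone without tetracycline was analysed here. Each line is 1 clone. No group had a replicate, so differences were not tested, and precision is limited by there being 1 array on each side.

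Replacement histones are made throughout the cell cycle and are put into nucleosomes outside DNA replication, in exchange for the histones made in S phase. H2A.Z takes the place of H2A around many promoters and is encoded in vertebrates by a pair of genes with nearly the same protein. MacroH2A carries a large extra domain and is known from repressed chromatin in mammals, H3.3 replaces H3 at active genes, and ANP32E is known in human and mouse cells to take H2A.Z out of nucleosomes.

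Signals are MAS5 intensities on a linear scale. Ratios are log2 of the knockout over the wild-type signal, after signals under a floor of 58.3, the 50th percentile of both arrays, were set to that floor. Probe sets that exceeded the floor in either culture count as measured, 21607 in all and each of the 7 members among them. Of the 7, 2 were at least 2-fold lower on the knockout array, those of the 2 genes targeted by design, beside 6.61% of all measured probe sets. At least 2-fold higher were 0 of 7, beside 4.01% of all measured probe sets. At the weaker limit of 1.5-fold, 3 of 7 were lower, beside 16.4%, and 0 of 7 were higher, beside 13.1%. The third was 1 of the ANP32E probe sets, so without the targeted genes 1 of 5 was at least 1.5-fold lower.

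The targeted genes check the labels. The H2AFZ probe set (gene on chromosome 4 of assembly GRCg7b) had a signal of 387 on the knockout array and 27331 on the wild-type array. The knockout signal was 1.42% of the wild-type signal, a log2 ratio of -6.14. The H2AZ2 probe set (gene on chromosome 22) had a signal of 17.6 on the knockout array and 18244 on the wild-type array. Both genes were thus far lower on the array labelled as knockout, but their knockout signals fell on opposite sides of the floor. The H2AZ2 signal gives only a bound, at least 313-fold lower, while the H2AFZ signal gives a measured fold, 70.6-fold lower.

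Among probe sets that exceeded the floor in both cultures, that of H2AFZ had the lowest log2 ratio, and the next, of the channel subunit gene KCNMB1, had -3.63. The H2AZ2 ratio of -8.29 is an upper bound set by the floor, and this bound lay below the -6.14 of H2AFZ. With the floor at percentile 75 the bound was -5.89, so at that floor the order of the targeted genes was not settled. For scale, the 2899 probe sets that exceeded the floor in both cultures and had a mean log2 signal within 1 of that of H2AFZ had ratios with an SD of 0.51. The 23 control probe sets named TrpnX and Tag, which gave dim signals, had a median signal of 13.1 and a maximum of 56.9 on the knockout array, against a median of 12.9 and a maximum of 84.4 on the wild-type array. The H2AZ2 signal on the knockout array lay inside that range and the H2AFZ signal above it, although probe sets differ in how brightly they respond. The H2AFZ probe set has the suffix (_s_at) by which Affymetrix marks probes common to several transcripts, and RefSeq lists the older symbol H2AFV under both H2A.Z genes. Where these probes lie relative to the deleted parts and to the transgene, and what gives the remaining H2AFZ signal, was not tested.

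**Figure D1:**
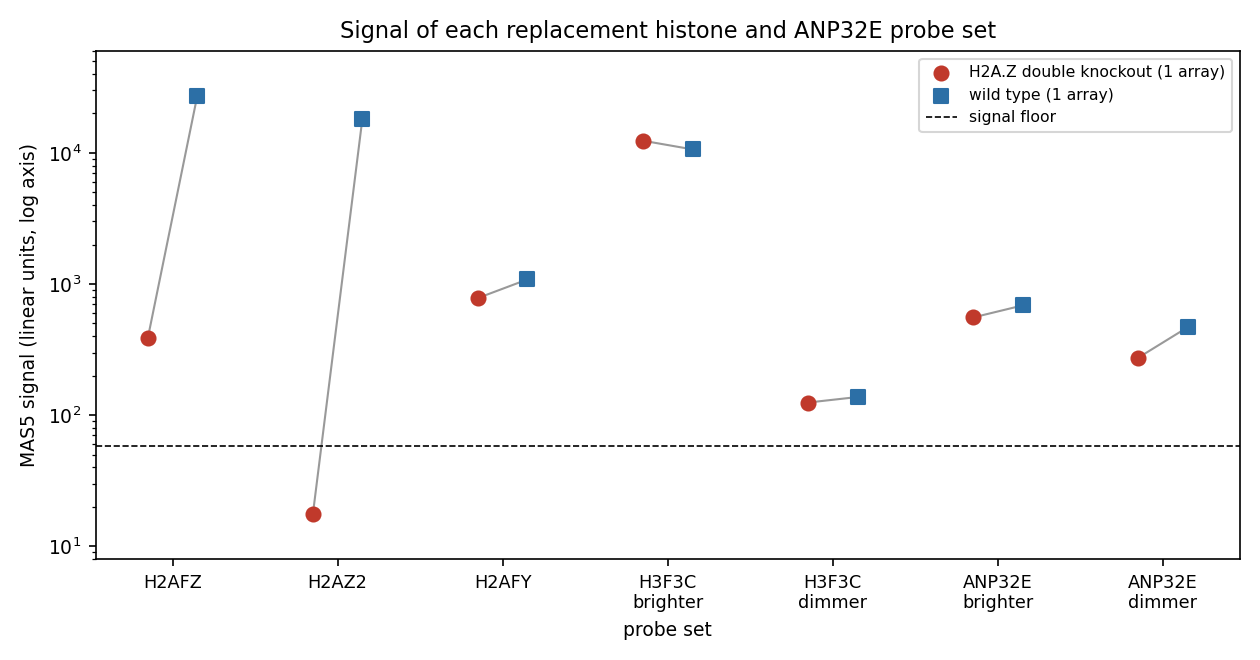
MAS5 signal (log axis) of each of the 7 member probe sets on the knockout array (circles) and the wild-type array (squares), with 1 array per group and the floor of 58.3 as a dashed line. H2AFZ had 387 against 27331 and H2AZ2 had 17.6 against 18244, while the other 5 probe sets had nearly level lines.

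The other 3 genes stayed within 2-fold. Over their 5 probe sets the log2 ratio ran from -0.77 to 0.22 with a median of -0.31, and 4 of 5 were below 0. All measured probe sets had a median of 0.01, with 10663 below 0 and 10944 above. Unlike these 5, they include probe sets under the floor on 1 array. Probe sets above the floor in both cultures and within 1 log2 unit of the mean signal of H2AFY had a median of -0.06. Those around the 2 ANP32E probe sets had -0.09 and -0.10, and those around the 2 of H3F3C had 0.08 and -0.01. The only estimate of error at hand is the disagreement between probe sets of the same gene: over 2237 genes with exactly 2 probe sets that exceeded the floor in both cultures, the SD of a log2 ratio was 0.42. It covers probe and isoform differences, and not the spread between cultures or clones. Of the 5 ratios, those of H2AFY and of 1 ANP32E probe set lay farther than this from 0, and that of H2AFY no longer did under median centring (-0.32), quantile normalization (-0.36) or loess (-0.40).

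H2AFY, the macroH2A gene on chromosome 13, had a signal of 782 on the knockout array and 1084 on the wild-type array, 1.39-fold lower in the knockout (log2 ratio -0.47). Among the 4392 probe sets within 1 log2 unit of its mean signal, 44.7% lay at least as far from their common median, so the difference was of a usual size for its brightness. H2AFY2, the other macroH2A gene, had a signal of 400 on the knockout array and 487 on the wild-type array, a log2 ratio of -0.29. Both macroH2A genes were on the lower side under every scaling and floor that gave a value, H2AFY between -0.47 and -0.32 and H2AFY2 between -0.29 and -0.13, with 1 probe set each.

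H3F3C, on chromosome 3, carries H3F3A, the usual name of a gene for H3.3, among its RefSeq synonyms, but also several older names for replication-coupled H3 genes, and which H3 protein it encodes was not settled here. The brighter of its probe sets had a signal of 12365 on the knockout array and 10622 on the wild-type array, 1.16-fold higher in the knockout (log2 ratio 0.22). The dimmer had 125 on the knockout array and 138 on the wild-type array (log2 ratio -0.14). The probe sets therefore pointed in opposite directions. The dimmer one turned to 0.01 under median centring, where all measured probe sets had a median of 0.14. The difference of 0.36 between the 2 H3F3C probe sets was near the median difference of 0.35 between paired probe sets. Of the 2237 genes, 49.5% differed as much. The 2 probe sets that list H3F3C among 4 histone H3 genes had log2 ratios of -0.16 and 0.06. H3F3B, a gene for H3.3, had a signal of 29933 on the knockout array and 27561 on the wild-type array, with a log2 ratio of 0.12 that turned to -0.04 after quantile normalization and -0.01 after loess. No H3F3C or H3F3B probe set thus reached 1.5-fold in either direction.

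ANP32E, the H2A.Z chaperone gene on chromosome 25, was on the lower side in both of its probe sets. The brighter had a signal of 556 on the knockout array and 687 on the wild-type array (log2 ratio -0.31). The dimmer had 274 on the knockout array and 468 on the wild-type array, 1.71-fold lower in the knockout (log2 ratio -0.77). The mean of both was -0.54 and their difference 0.47, and 37.7% of genes with paired probe sets differed as much. For the dimmer probe set, 29.1% of the 5040 probe sets of like brightness lay at least as far from their median, and for the brighter, 70.8% of 4632. Both stayed below 0 under every scaling and floor, from -0.31 to -0.15 and from -0.77 to -0.61. The -0.61 is a bound, since the knockout signal of the dimmer probe set was under the floor at percentile 75. Both ANP32E probe sets carry the same _s_at suffix as the H2AFZ probe set.

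The related acidic chaperones, ANP32A and ANP32B, were on the array too. ANP32A had a signal of 621 on the knockout array and 1173 on the wild-type array, 1.89-fold lower in the knockout (log2 ratio -0.92, and -0.76 under median centring). ANP32B had 3 bright probe sets with log2 ratios of -0.31, -0.15 and -0.06. The last 2 were above 0 under median centring (0.01 and 0.09), but below the median of all measured probe sets there, 0.14. The remaining ANP32B probe set had 64.0 on the knockout array and 15.9, under the floor, on the wild-type array. The brighter ANP32E probe set, at -0.31, thus lay within the range of the bright ANP32B probe sets and the dimmer, at -0.77, between that range and ANP32A. None of the 3 genes passed 2-fold by its brightest probe set.

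**Figure D2:**
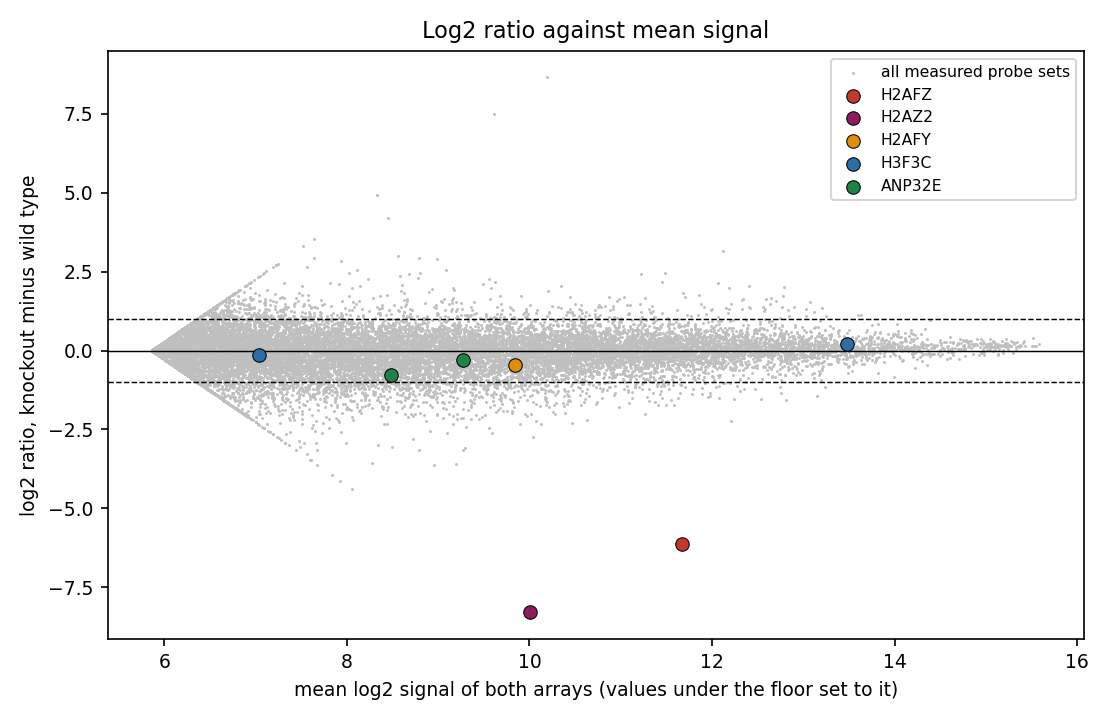
Log2 ratio, knockout minus wild type, against the mean log2 signal of both arrays for all 21607 measured probe sets (grey) and the 7 members (coloured), with dashed lines at 2-fold. H2AZ2 and H2AFZ lie apart at -8.29 (a bound) and -6.14, while the other 5 members lie inside the cloud between -0.77 and 0.22.

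Likeness between genes was measured as the distance between pairs of log2 signals on the 2 arrays, with each gene's brightest probe set. For H2AFZ the closest genes above the floor in both cultures were IRF8, a transcription factor of B cells, at 2.87 log2 units and the proton channel HVCN1 at 3.13. For H2AZ2 no distance is given, since its knockout signal was under the floor. The nearest to H2AFY were MCL1, a survival factor of the BCL2 family, at 0.04, OSTF1 at 0.04 and the vitamin C transporter SLC23A2 at 0.05. The nearest to H3F3C were the deubiquitinase USP10 at 0.02, the cyclophilin PPID at 0.03 and the export receptor XPO1 at 0.03, and those to ANP32E were FAM193A, PIGL and LIN52, at 0.01, 0.01 and 0.02. With 2 arrays, such likeness says only that the signals were alike.

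Replication-coupled histone genes, which supply chromatin in S phase, did not move as a block. Their probe sets were looked at after the values were seen. Of 12, which include the 2 H3 probe sets that also list H3F3C, 11 were measured. Of these, 1 was at least 2-fold lower and 2 were at least 2-fold higher, beside the 6.61% and 4.01% of all measured probe sets given above. The 2 higher ones list the same 3 H2B genes and are not independent. The probe set of 5 H2A genes had a signal of 1962 on the knockout array and 4141 on the wild-type array, 2.11-fold lower in the knockout (log2 ratio -1.08, and -0.93 under median centring). Both probe sets of 3 H2B genes were higher, with 8665 on the knockout array against 4319 on the wild-type array, and with 5856 against 2615, although the log2 ratio of the first, 1.00, was 0.95 after quantile normalization or loess. A probe set of 5 H4 genes had 6730 on the knockout array and 3424 on the wild-type array, 1.97-fold higher. Its log2 ratio was 0.97, and 1.13 under median centring. The other H4 probe set had a log2 ratio of -0.12 that turned to 0.03 under median centring and 0.04 after quantile normalization. All measured probe sets had medians of 0.14 and 0.02 in those settings. The H1 gene HIST1H111L had 6995 on the knockout array and 12107 on the wild-type array, 1.73-fold lower. The other measured H1 probe set, of HIST1H111R, was dim, with 81.3 on the knockout array and 61.0 on the wild-type array (log2 ratio 0.41). Labelling with this kit starts from poly(A) tails, which most replication-coupled histone messages lack. Which messages gave these signals was not tested.

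Other genes that handle histones are given from lists, by each gene's brightest probe set. The lists were written with earlier results of these data known, so their shares are descriptions only. The list of the SRCAP, TIP60 and INO80 complexes, which exchange H2A.Z, had 22 measured subunit genes. Ratios were below 0 for 18 of them, beside 4627 of all 9540 measured genes. At least 2-fold lower were 5 of the 22 (22.7%, beside 6.71% of all measured genes). The list median was -0.44, against 0.02 for all genes. Median centring gave a list median of -0.29, beside 0.16 for all genes. A floor at percentile 75 gave -0.26, where 2 of 16 measured genes were at least 2-fold lower, beside 5.0% of all genes. With a pseudocount the count was 3 of 22, also beside 5.0%. The 5 were MRGBP (1409 on the knockout and 3533 on the wild-type array), ING3 (717 and 1493, under 2-fold after median centring, quantile normalization or loess), INO80C (236 and 539), INO80D (75.2 and 190, with another probe set at 0.04) and DMAP1, at least 2.67-fold lower from a dim wild-type signal of 155. At least 2-fold higher were 0 of 22, beside 3.94%. Of 25 measured histone chaperones 1 was at least 2-fold lower, CABIN1 of the complex that deposits H3.3 (log2 ratio -1.36, and under 2-fold by the median of its probe sets), and 0 were at least 2-fold higher. HIRA, the core of that complex, had a log2 ratio of 0.02, with another probe set at -0.24. UBN1 had 0.02 by its brightest probe set, but its 4 measured ones ran from -0.73 to 0.47. RBBP4 had 0.07 by its brightest probe set and -1.72 by the lowest of its 4 measured ones. The chaperone median was 0.05, and turned to -0.02 after quantile normalization or loess. Of 10 measured readers of H2A.Z chromatin none passed 2-fold by its brightest probe set, and the farthest were BRD2 (0.53, with another probe set at 1.09), TCF20 (0.40) and CBX3 (-0.38), while PWWP2A had -0.01 and another probe set at -0.92. The list of other variants gave values for H2AFY2 and H3F3B alone, since 16 of its 19 symbols named no probe set of their own and H1FOO lay under the floor. The list of replication-coupled genes gave HIST1H2B5L (0.22) alone, since 36 of its 38 symbols named no probe set of their own and HIST1H2A4 lay under the floor.

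**Figure D3:**
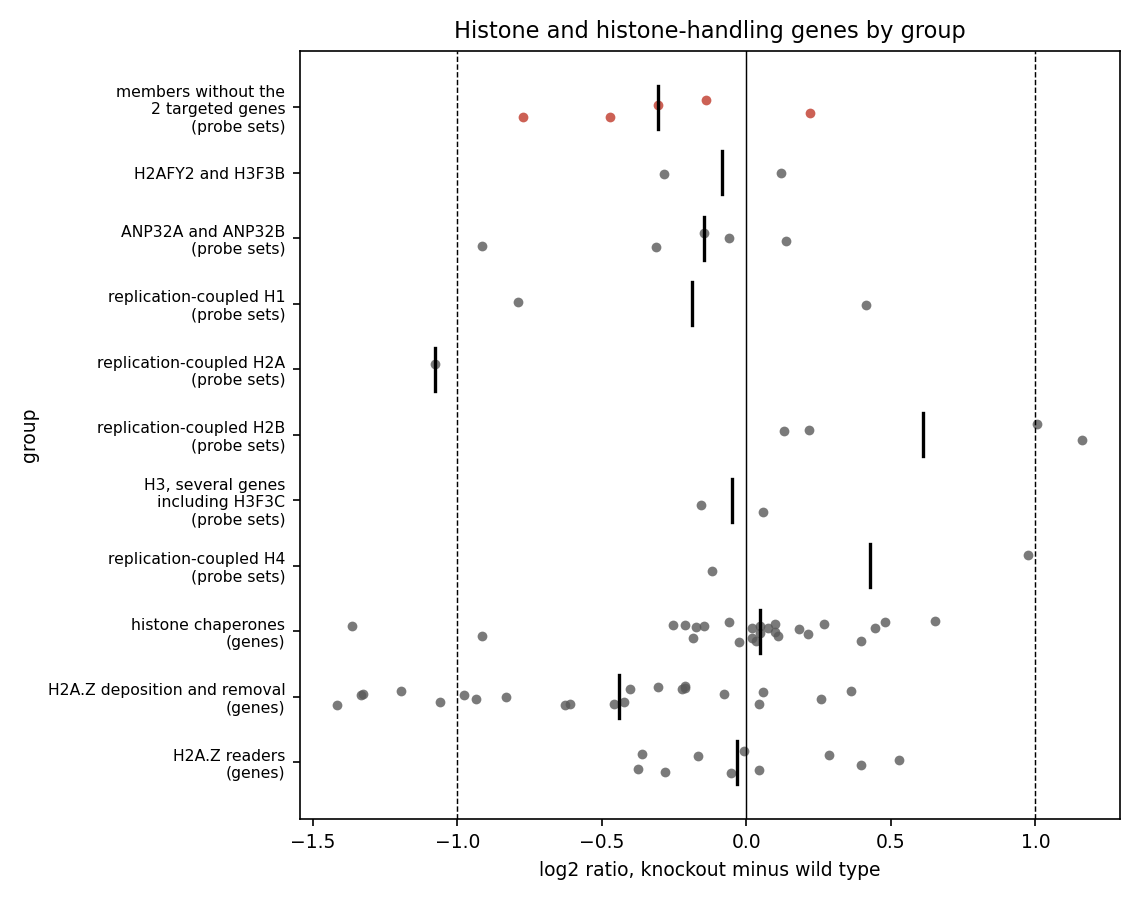
Log2 ratio, knockout minus wild type, of each probe set or gene (points) by group, with the group median as a bar and dashed lines at 2-fold. The 5 member probe sets of H2AFY, H3F3C and ANP32E have a median of -0.31, while the H2A.Z deposition and removal genes have a median of -0.44 and reach past -1.

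**Figure D4:**
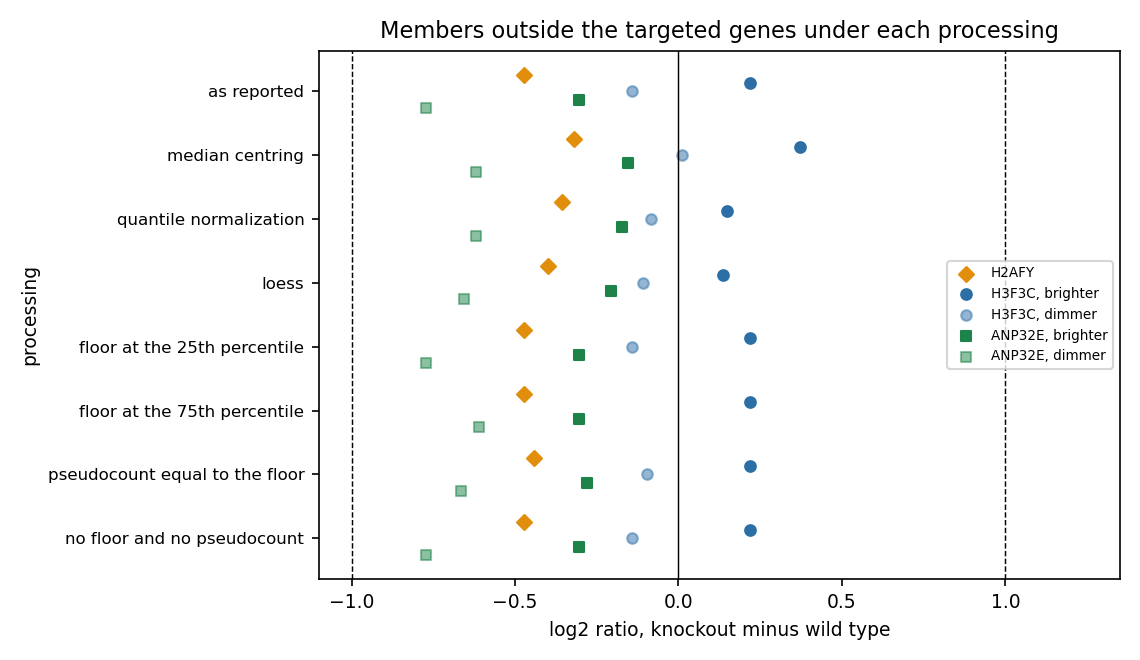
Log2 ratio, knockout minus wild type, of the 5 member probe sets outside the targeted genes under each processing, with dashed lines at 2-fold. H2AFY and both ANP32E probe sets stay below 0 and the brighter H3F3C probe set stays above 0 in every row, while the dimmer H3F3C probe set sits at 0.01 under median centring and has no value with the floor at the 75th percentile.

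The arrays differed in other ways as well. The signal ratio of 3′ to 5′ actin control probe sets was 1.95 on the knockout array and 1.13 on the wild-type array, that of EF1A was 1.46 and 1.23, and that of GAPDH was 1.07 and 1.03. All 12 B cell markers found on the array were above the floor on both arrays by their brightest probe set. For PAX5 that probe set was dim, with 76.3 in the knockout and 126.5 in wild type, and another had 13.8 and 80.7. The B cell markers had summed signals of 41098 in the knockout and 70907 in wild type. Within these sums CD74 had 5510 and 14969, and CD79B had 7718 and 8827. T cell markers were above the floor for 3 of 8 genes in the knockout and 5 of 8 in wild type, with sums of 4834 and 13490, mostly from CD3D (4162 and 12407), while CD4, CD28 and LCK were under it on both. Myeloid markers summed to 1606 and 3036, erythroid to 285 and 77, and fibroblast markers to 894 and 850 in the knockout and wild type. In RNA from whole cultures, fewer cells that express a gene and less RNA of it per cell cannot be told apart. The part of these differences in the ratios of H2AFY, ANP32E and H3F3C was not tested.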

How the data were processed

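Biotin-labelled cRNA was made from total RNA with a 3′ amplification kit, per the labels' protocols, for 2 arrays of 1 colour. The deposited values are linear intensities, and MAS5 is the tool that the submitters' processing notes name. Its version, its scaling target and any detection calls were not used here. Each array had been scaled alike, with a trimmed mean of 500.2 on both (2% left out at each end). MAS5 scales an array by a single factor, so a trend with brightness stays in the values.

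Groups came from the genotype labels. Genes were named from the platform annotation, which gives 1 symbol for 27178 probe sets, several for 177 and none for 11180. All 5 member genes were found by gene ID among the RefSeq genes of GRCg7b, used here for chromosomes, synonyms and gene order only. Of 38535 probe sets, 96 controls were left out. Signals under the 50th percentile of both arrays were set to it and log2 was taken. Each gene of a list was given its brightest measured probe set. Genes were named by a rule: all member probe sets, the 3 nearest genes of each member (for H2AFZ only those above the floor in both cultures, and for H2AZ2 none), and in each list every gene past 2-fold, or else the 3 farthest. HIRA, UBN1, RBBP4, PWWP2A, KCNMB1, the relatives ANP32A and ANP32B and the replication-coupled histones were added after their values were seen. The members and lists were chosen with earlier results of these data known.

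With 1 array per group no test was made. The alternatives were median centring, quantile normalization, loess (span 0.3), the floor moved to percentile 25 or 75, a pseudocount of the floor's size, no floor, the median over a gene's probe sets, and leaving out shared probe sets, the last 2 for the lists only. The computation was tested on simulated data. Python 3.11.15, numpy 2.4.6, pandas 2.3.3, statsmodels 0.14.6 and matplotlib 3.10.9 were used.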

Additional observations from a re-analysis of the deposited data

How the results depend on the processing

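No paired analysis was possible because each group had 1 array. Of 48 member values under the alternatives, 45 lay within the probe set error of 0.42 (log2) of the reported one. The other 3 belonged to H2AZ2, whose knockout signal is under the floor: -10.02 with a floor at percentile 25 or none, and -5.89 with a floor at percentile 75, since the floor sets the bound. Part of the agreement of the 45 was fixed in advance, since a changed floor cannot move a ratio whose signals both exceed it. Median centring moves every such ratio by the same amount. H2AFZ ran from -6.17 to -5.94. The counts of members past 2-fold, 2 lower and 0 higher, held under all 7 alternatives. The 2 lower were those of the genes targeted by design. Among the 60 list genes measured as reported, 6 were at least 2-fold lower (10.0%, beside 6.71% of all genes) and 0 were at least 2-fold higher (beside 3.94%). With a floor at percentile 75, 3 list genes were at least 2-fold lower, beside 5.0% of all genes. With a floor at percentile 25, 1 list gene was at least 2-fold higher, beside 10.1% of all genes. The median of H2A.Z readers, -0.03 as reported, changed sign to 0.12 under median centring, 0.0501 after quantile normalization and 0.016 after loess. That of histone chaperones, 0.05 as reported, reversed to -0.0209 after quantile normalization, -0.0183 after loess, -0.106 with the median over probe sets and -0.0607 without shared probe sets. Median centring also moved the median of all genes, to 0.16 against 0.02 as reported, so the reader median lay below that of all genes under both. After quantile normalization and loess the medians of all genes were 0.019 and 0.0126, and the reader median lay above them. The cause of the other sign changes was not tested. The share of measured probe sets past 2-fold was 6.61% lower and 4.01% higher as reported, 4.73% lower and 5.77% higher under median centring, 12.3% and 11.7% with a floor at percentile 25, and 11.4% and 10.3% with no floor. Signals near the floor, such as the H2AZ2 signal on the knockout array, limit how large a fall can be measured. The added ratios of relatives and replication-coupled histones were also run under these settings, which were chosen after seeing the data.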

Other observations

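Genes near the 2 targeted genes were looked at after the members' values were seen. They were the 2 nearest protein-coding genes on each side in GRCg7b that were measured on the arrays. Counted in protein-coding genes, those of H2AFZ lay 1 and 2 away on one side and 2 and 3 away on the other. Those of H2AZ2 lay 3 and 6 away on one side and 5 and 6 away on the other, so its adjacent genes were not measured. Beside H2AFZ, DNAJB14 had a signal of 4063 on the knockout array and 3635 on the wild-type array (log2 ratio 0.16). Its 4 probe sets ran from -0.19 to 0.16. LAMTOR3 had 4229 on the knockout array and 5226 on the wild-type array (log2 ratio -0.31, with another probe set at -0.735). On the other side, PPP3CA, a catalytic subunit of calcineurin, had 1020 on the knockout array and 1734 on the wild-type array, with ratios from -0.88 to 0.01 over 5 probe sets. The B cell scaffold gene BANK1 had 195 on the knockout array and 103 on the wild-type array (log2 ratio 0.92, with another probe set at -0.12). Around H2AZ2, MTHFD2, an enzyme of mitochondrial folate metabolism, had 6769 on the knockout array and 4242 on the wild-type array (log2 ratio 0.67). Its 3 probe sets went both ways. GMCL1 (0.06), HK2 (0.33) and the dim TACR1 (-0.05) completed the set. None of these 8 neighbours passed 2-fold by its brightest probe set, beside 6.71% of genes lower and 3.94% higher. BANK1, at 0.92, came closest. The neighbours were not run under the alternative settings, so whether this holds there was not tested.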
